A study of Homo sapiens with 40 samples.

Results

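The genes described here encode the protein subunits of the mitochondrial ribosome. They were taken from the count table by name, as every row whose symbol is MRPL or MRPS followed by a number and at most 1 letter from A to C, with pseudogenes left out. That rule found 78 of the 57992 genes, and no measured value entered it. Of these, 51 encode proteins of the large subunit, MRPS18A and MRPS30 among them, and 27 are counted with the small subunit by their names. One of these, MRPS36, has since been reassigned to the 2-oxoglutarate dehydrogenase complex as KGD4. A bacterial counterpart is known for 48, and 30 belong to mitochondria only. Their RNA was followed in human HEK293T cells, an embryonic kidney line, before and after streptavidin enrichment of RNA labelled by a peroxidase at 4 places in the cell.

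The mitochondrial ribosome translates the few proteins encoded by mitochondrial DNA, all of them parts of the respiratory chain or of ATP synthase. Its rRNAs come from mitochondrial DNA, but its proteins are all encoded in the nucleus, translated by cytosolic ribosomes and imported into the matrix. The mRNAs of the members are therefore made in the nucleus and read in the cytosol or at the mitochondrial surface, outside the matrix where their products work.

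In this method, called APEX-seq, the engineered peroxidase APEX2 turns biotin-phenol into a short-lived radical when hydrogen peroxide is added, and nearby RNA becomes biotinylated. The variant used here feeds the cells 6-thioguanosine (s6G) or 4-thiouridine (s4U), thionucleosides that are built into new RNA. APEX2 was directed to the mitochondrial matrix (the MITO construct), the endoplasmic reticulum membrane (ERM), the cytosol (NES) or the nuclear lamina (LMNB1). MITO had 4 arms: s6G, s4U, APEX labelling with no thionucleoside (APEX only), and an unlabelled control that received neither thionucleoside nor biotin-phenol. ERM and NES had the s6G arm, and LMNB1 had the s6G, APEX-only and unlabelled arms. Thionucleosides were given at 100 µM for 5 h, biotin-phenol at 0.5 mM for 30 min and hydrogen peroxide at 1 mM for 1 min. Every arm had 2 enriched and 2 input libraries, except ERM with 4 of each, which makes 40 libraries of polyadenylated RNA. Every library, those of the unlabelled arms included, comes from cells with a construct. The design text calls the replicates biological without saying how they were kept apart, so p-values measure the spread between these samples.

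Total counts ran from 123341 to 14496768 per library. The unlabelled MITO enriched libraries were the shallowest, at 123341 and 842177, and ERM enriched replicate 4 the deepest. Levels below are CPM, counts as a share of the effective library size after TMM scaling over all 40 libraries, put on a common total. The members held 0.252% to 0.731% of all counts. The lowest shares were in the MITO s6G enriched libraries, at 0.387% and 0.252%, where transcripts of mitochondrial DNA held 36.1% and 58.2% of the counts. As a share of the counts from nuclear genes the members stood at 0.606% and 0.604% there, against 0.594% to 0.602% in the matching inputs. In the ERM enriched and LMNB1 s6G libraries the labels conflict: the characteristics field gives s4U, but the sample title gives s6G, as does the design text. The titles were used. ATF3, a stress-response gene, stood at 782 to 935 CPM in the ERM enriched libraries and 182 to 192 in the LMNB1 s6G enriched libraries, against 63.6 to 108 in the MITO s4U enriched libraries and 501 to 618 in the MITO s6G ones. In the matching inputs it stood at 351 to 357 (ERM), 166 to 194 (LMNB1 s6G), 37.2 to 48.9 (MITO s4U) and 239 to 273 CPM (MITO s6G), and in the LMNB1 APEX-only enriched libraries at 39.7 to 68.6 CPM. The neurofilament genes NEFM and NEFL, vimentin and CDH2, which HEK293T cells are known to express, were present in every library, and the kidney factor LHX1 had at most 2 counts in any. Blood, liver, endothelial and muscle markers had medians of 0 to 2.51 CPM. Their highest values in any library were VWF at 58.3 and MYH2 at 23.3 CPM, where no library held more than 19 and 4 counts.

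Not every member could be measured. MRPS12, a protein of the decoding site, and MRPS18B had 4 counts each over all 40 libraries, MRPS24 had 257 and MRPL45 had 259. Genes beside MRPS12 and MRPS18B were also nearly empty: SARS2, 181 bases from MRPS12, had 0 counts, and PPP1R10 and ATAT1, within 597 bases of MRPS18B, had 2 and 1. Beside MRPS24 and MRPL45 this was not so throughout, with 12793 counts for URGCP and 1010 for SOCS7. MRPL45 anchors the ribosome at the inner membrane and was left out of the MITO, ERM and NES tests for its low counts. After the filter on low counts, 74 members were tested in the MITO libraries, 75 in the ERM and NES libraries and 76 in the LMNB1 libraries. The span of 28 members overlaps another protein-coding or long noncoding gene, and 34 have named pseudogene rows in the table. Those 74 pseudogene rows held 2540 counts, against 1234548 for the members. Reads of such overlapping or copied genes may have been assigned to either, which was not tested.

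CPM values take account of RNA composition but not of gene length. The authors' deposited TPM table (transcripts scaled to a fixed total per library) for MITO adds the 2 libraries of a group, and the values here are that sum divided by 2. It puts MRPS34, MRPL41 and MRPL51 highest in the APEX-only input, at 1380, 600 and 559 TPM, and MRPS12, MRPS18B and MRPL45 lowest, at 0, 0.075 and 0.42 TPM. The divisor implied by CPM over TPM followed the whole gene span, introns included, with a Spearman rho of 0.894 over 74 members, taken from RefSeq. MRPS34 and MRPL41 span only 1240 and 677 bases. TPM order therefore mixes level with intron length here, and no levels are ranked between genes below.

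The ERM libraries, at the endoplasmic reticulum membrane, gave the largest number of called members of any arm. After s6G labelling from the ERM construct, 16 of 75 members rose over input and 36 fell, where a call is an adjusted p under 0.05 by edgeR's quasi-likelihood test with Benjamini-Hochberg adjustment over all 15619 genes tested. Of all genes, 34.3% rose and 28.9% fell, so the members' share of risers (21.3%) was below the background and their share of fallers (48.0%) above it. The median log2 fold change was -0.40 for the members and 0.11 for all genes. The 4 enriched libraries lay wholly below the 4 inputs for 30 members, or 40% against 26.8% of all genes, and wholly above for 8, or 10.7% against 29.6%. The split depends on scaling: 10 rose and 38 fell with median-of-ratios scaling (all genes 31.3% and 31.6%), and 26 rose and 27 fell with unscaled totals (44.5% and 21.0%). The distance of the members' median from that of all genes hardly moved with it, at -0.517, -0.520 and -0.526.

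MRPS30, despite its name a protein of the large subunit, rose most. Its inputs stood at 52.7, 44.1, 43.4 and 38.7 CPM and its enriched libraries at 123, 117, 105 and 95.5 CPM. No enriched library came near an input, and the log2 fold change was 1.33 ± 0.12 (SE, n = 4 and 4, edgeR adjusted p = 2.36e-08). MRPL44, a large-subunit protein with the fold of RNase III enzymes, went from 51.6, 55.1, 49.8 and 64.4 CPM to 84.3, 107, 99.0 and 111 CPM, again without overlap. Its log2 fold change was 0.89 ± 0.12. MRPS17, a core small-subunit protein (1.10 ± 0.20), MRPL17 (0.94 ± 0.12) and MRPL49 (0.87 ± 0.10) completed the 5 largest rises, each with all enriched libraries above all inputs. MRPS17 is the most thinly counted of these, at 4.94 to 7.28 CPM in the inputs and 9.98 to 16.3 CPM after enrichment.

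**Figure D1:**
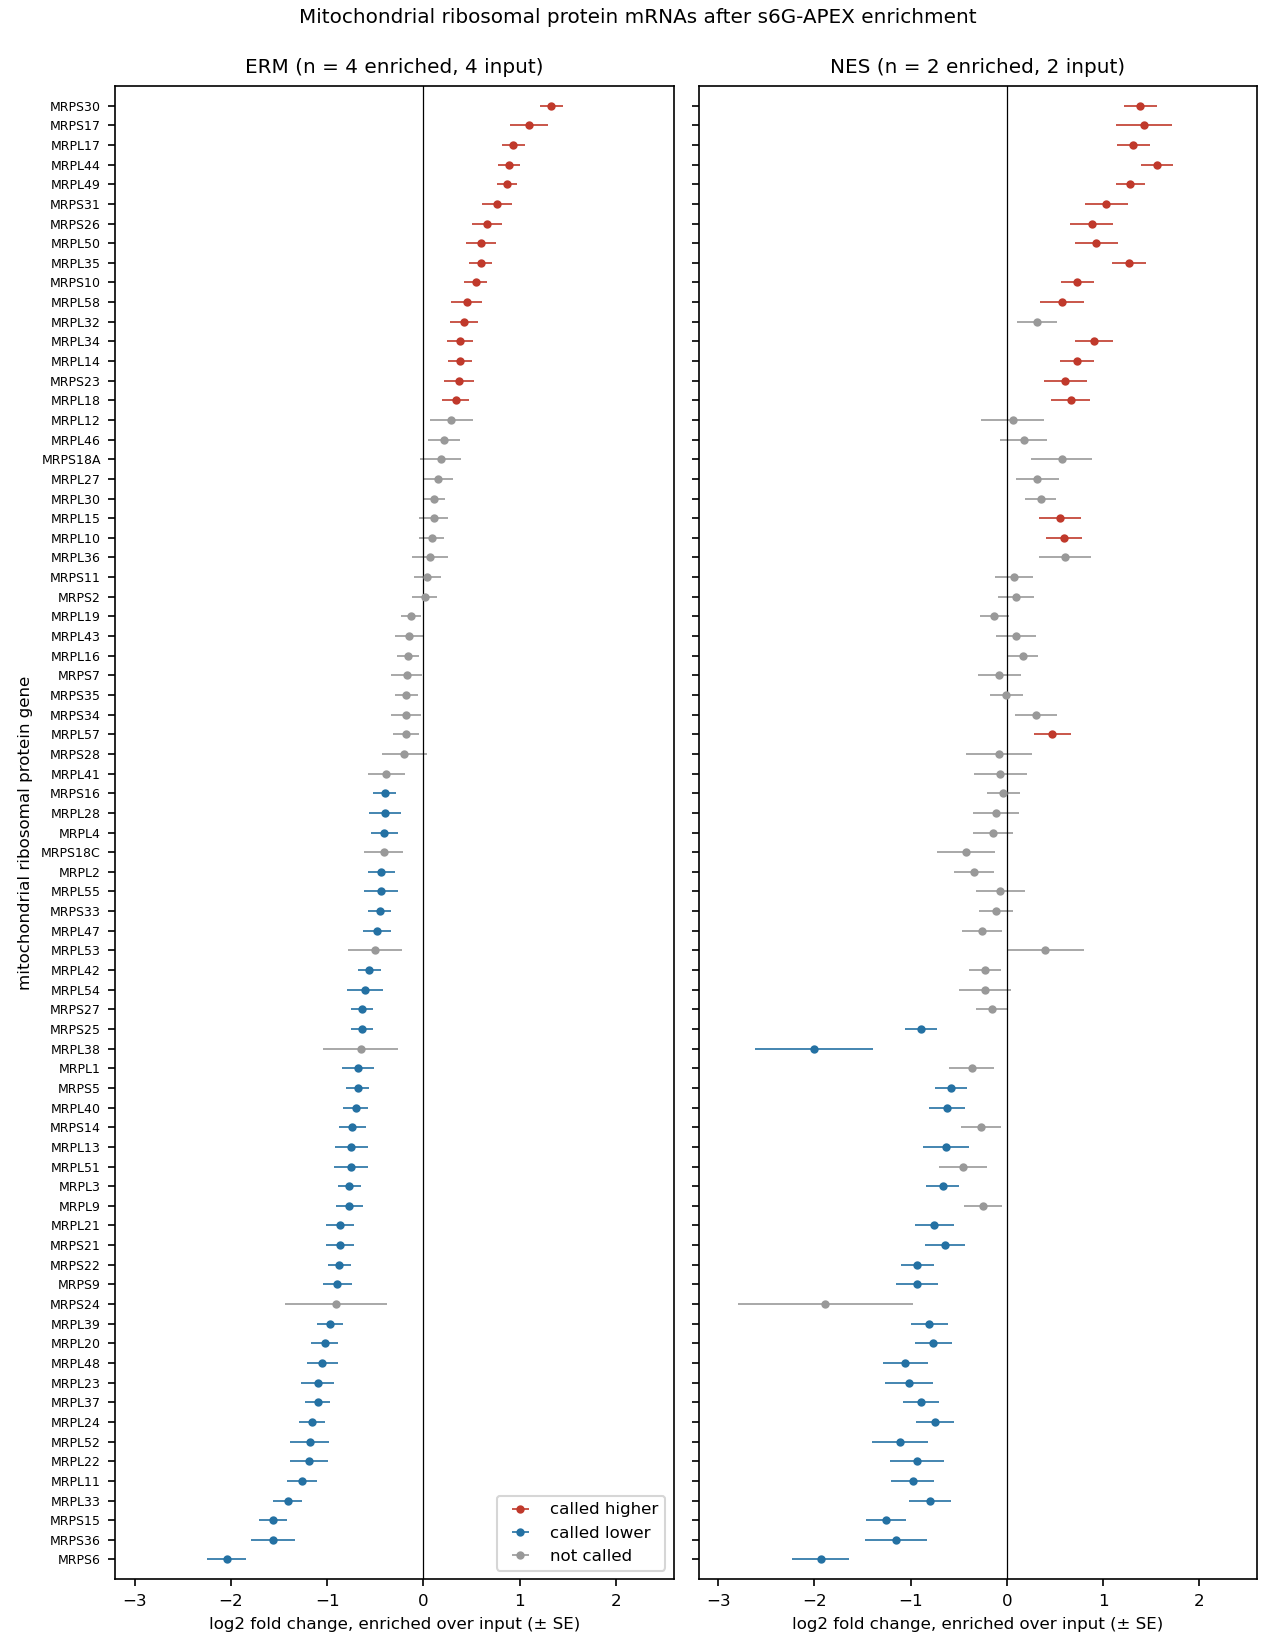
Log2 fold change of enriched over input RNA (x axis, with its SE) for each of the 75 tested members (y axis, ordered by the ERM value) in the ERM libraries (left) and the NES libraries (right). Red and blue points passed an adjusted p of 0.05 by edgeR; MRPS30 is at 1.33 and MRPS6 at -2.04 in ERM, and the NES points follow nearly the same order.

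MRPS6, a small-subunit protein, fell most. Its inputs stood at 16.1, 14.9, 15.7 and 17.6 CPM and its enriched libraries at 3.60, 4.60, 3.15 and 4.04 CPM, a log2 fold change of -2.04 ± 0.20 (SE, n = 4 and 4, edgeR adjusted p = 7.97e-08). SLC5A3 lies within its span. MRPS15, which binds the small rRNA, went from 93.0, 106, 111 and 131 CPM to 25.8, 35.0, 41.6 and 42.6 CPM, a log2 fold change of -1.56 ± 0.15. Both genes were lower in every enriched library than in any input. MRPS36 also had -1.56 ± 0.23, and MRPL33, a small protein of the large subunit, had -1.41 ± 0.15. MRPL11, at the base of the stalk that recruits translation factors, had -1.26 ± 0.16, from 104, 103, 137 and 148 CPM to 35.6, 48.4, 58.8 and 57.7 CPM.

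**Figure D2:**
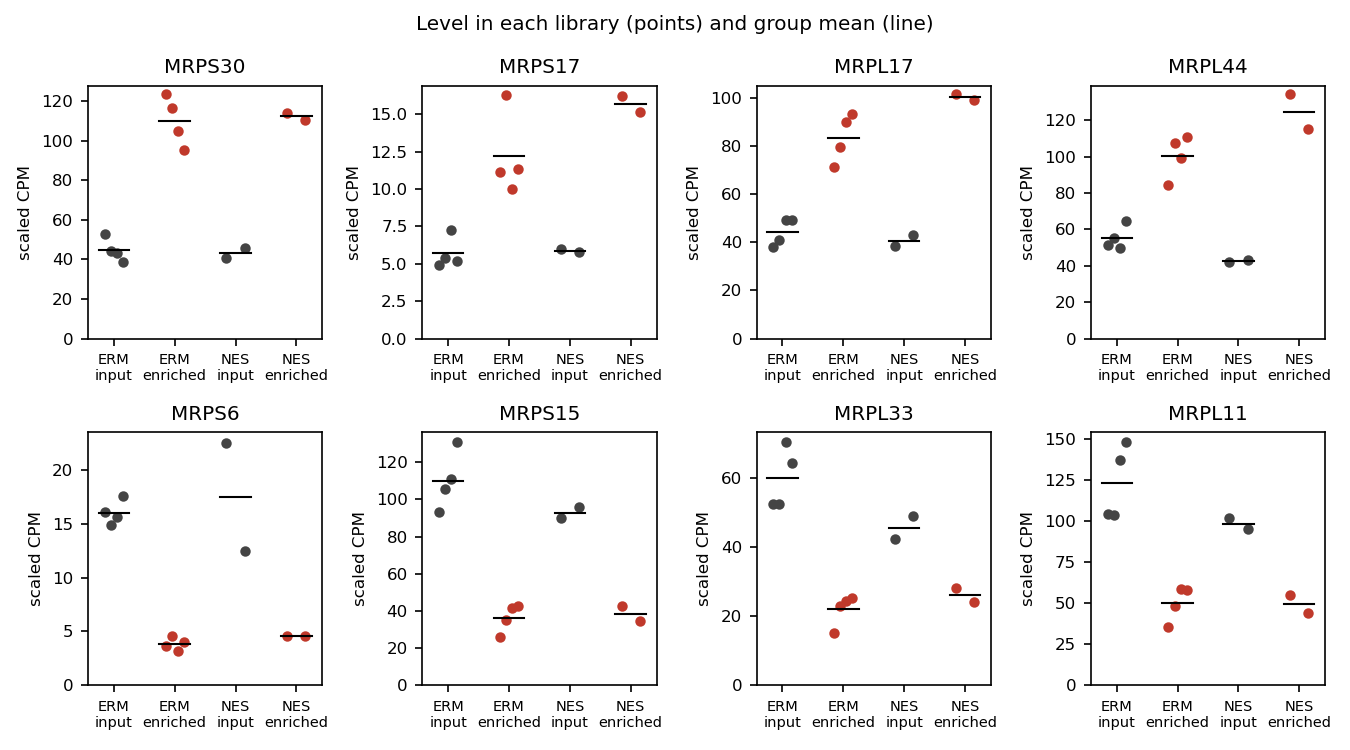
Scaled CPM (y axis, from 0) in each input library (grey points) and enriched library (red points) of the ERM construct (4 and 4) and the NES construct (2 and 2), with group means as lines. The 4 genes of the upper row lie higher after enrichment and the 4 of the lower row lower, in both constructs and with no overlap between input and enriched libraries.

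By place in the ribosome, the members did not move as blocks. Of 50 tested large-subunit members 11 rose and 24 fell, and of 25 members with small-subunit names, MRPS36 included, 5 rose and 12 fell, with medians of -0.40 and -0.41. Members with a bacterial counterpart (8 rose and 23 fell of 46) and those found only in mitochondria (8 and 13 of 29) had medians of -0.40 and -0.46. Around the stalk, MRPL11 fell while MRPL10 (0.09 ± 0.13) and MRPL12 (0.29 ± 0.22) were not called. Proteins around the exit of the peptide tunnel went both ways. MRPL23 and MRPL24 fell, by 1.10 and 1.16 on the log2 scale, while MRPL17 rose, and of 3 more, chosen after their values were seen, MRPL22 (-1.19) and MRPL47 (-0.48) fell and MRPL32 (0.43) rose. MRPL14 and MRPL19, at the face between the subunits, had 0.38 ± 0.12, called higher, and -0.13 ± 0.11, not called. MRPL58, a peptidyl-tRNA hydrolase kept as a subunit, rose by 0.45 ± 0.16.

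Among the other members looked at for their roles, MRPL3, MRPL4, MRPS5, MRPS22 and MRPS27 fell, between -0.40 for MRPL4 and -0.87 for MRPS22. MRPS27 is a pentatricopeptide-repeat protein, a class that binds RNA. For MRPL4, MRPL14 and MRPL58 some enriched and input libraries overlapped although the genes were called. MRPS2 (0.01 ± 0.13), MRPS7 (-0.17 ± 0.16), MRPS28 (-0.20 ± 0.23) and MRPL41 (-0.39 ± 0.19) were not called. MRPS18A and MRPS18C, paralogs of each other, were not called either, at 0.18 ± 0.21 and -0.41 ± 0.20. MRPL41 shows the spread between the replicate pairs: its inputs 1 and 2 stood at 143 and 126 CPM and inputs 3 and 4 at 89.3 and 87.9 CPM, while its enriched libraries stood at 58.7 and 68.0, then 92.0 and 112 CPM.

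ERM replicates 1 and 2 (5342584 to 6664875 counts) were shallower than replicates 3 and 4 (12382757 to 14496768 counts). Fitted apart, replicates 1 and 2 called 13 members higher and 37 lower (all genes 33.0% and 28.9%), and replicates 3 and 4 called 19 higher and 35 lower (32.7% and 25.4%). All 52 members called over the 4 replicates had the same sign in both fits. They were chosen by a fit that holds these same libraries, so this is no separate support. Of the 74 members with a value in both fits, called or not, 66 had the same sign, with a Pearson r of 0.826. Both fits kept the NES libraries.

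The cytosolic construct placed the members in a similar order. In NES, 18 of 75 members rose and 23 fell (24.0% and 30.7%), against 28.7% and 26.4% of all genes, with a median log2 fold change of -0.11 against 0.01. The members' shares stand near the background here. MRPL44 rose most, from 42.2 and 43.1 CPM to 134 and 115 CPM (log2 fold change 1.56 ± 0.17, n = 2 and 2, edgeR adjusted p = 5.52e-07). MRPS17 (1.43 ± 0.29), MRPS30 (1.39 ± 0.17), MRPL17 (1.31 ± 0.17) and MRPL49 (1.29 ± 0.15) followed, so the 5 largest rises were those of the same 5 genes as in ERM. MRPL38, a protein of the central protuberance, had the lowest value, from 5.78 and 6.16 CPM to 1.47 in both enriched libraries (-2.0 ± 0.61), and is thinly counted. MRPS6 (-1.93 ± 0.29), MRPS15 (-1.26 ± 0.21), MRPS36 (-1.15 ± 0.32) and MRPL52 (-1.11 ± 0.29) were the next lowest of those called. The calls of MRPL38 and MRPL52 were lost without NES enriched replicate 2, and those of MRPL38 and MRPS36 without enriched replicate 1. Leaving out any 1 NES library gave fewer called members than the 41 of the full fit. Such a fit leaves 1 library in a group for every gene, so the drop need not be particular to the members.

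ERM and NES were compared with their own inputs, so they share no library. Across the 75 members the 2 sets of log2 fold changes had a Pearson r of 0.922, against 0.832 across all 15619 genes; this is a correlation over genes, which are not independent replicates. Of the risers, 15 were shared, out of 16 in ERM and 18 in NES. Of the fallers, 22 were shared, out of 36 in ERM and 23 in NES, and no member was called in opposite directions. Over all genes 4080 rises were shared, out of 5362 in ERM and 4486 in NES, and 3463 falls, out of 4508 and 4126, while 13 genes were called in opposite directions.

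The difference itself, ERM enrichment minus NES enrichment, was called for none of the 75 members by edgeR, against 1 gene higher (0.0064%) and 0 lower of all genes. At an unadjusted p under 0.05 there were 9 members, all lower in ERM, against 7.38% of all genes lower. DESeq2 called 2, both lower, against 1.62%. With each enriched library paired to its input as a block, 3 were called lower: MRPL35, MRPL44 and MRPL57, at -0.67, -0.66 and -0.66 (edgeR adjusted p = 0.0205, 0.0209 and 0.028), against 3.58% of all genes called lower. With ERM replicates 1 and 2 alone 7 members were called lower (all genes 2.92%), and with replicates 3 and 4 alone 1 higher and 7 lower (3.85% and 5.3%). Only 10 of 75 members (13.3%) lay above 0, against 46.6% of all genes, and the median difference was -0.25 against -0.04 for all genes. The scaling bears on the sign: with unscaled totals 36 members lay above 0 and the median was -0.01, but all genes then had a median of 0.20.

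Other genes of the same pathway and the nearest comparison families place these values. The mRNAs of cytosolic ribosomal proteins fell almost without exception in ERM (79 of 81 fell and 1 rose, median -1.64) and in NES (77 fell and 1 rose, median -1.28). Nuclear genes for respiratory chain subunits did much the same, with 67 of 75 falling and 1 rising in ERM (median -1.41), and 62 falling and 1 rising in NES (median -1.13). The members' medians of -0.40 and -0.11 lay between those families and all genes. Of 5 mitochondrial ribosomal proteins with other names, 4 fell in ERM, among them DAP3 (-0.91 ± 0.14) and the pentatricopeptide-repeat protein PTCD3 (-0.91 ± 0.10). Factors that assemble the ribosome or modify its rRNA went the other way: 15 of 24 rose in ERM and 5 fell, and 13 rose and 5 fell in NES. The rRNA methyltransferases MRM2 and MRM3 and the helicase DDX28 led them, at 1.30 ± 0.13, 1.24 ± 0.16 and 1.26 ± 0.16 in ERM. Mitochondrial translation factors (4 rose and 8 fell of 17) and mitochondrial aminoacyl-tRNA synthetases (3 rose and 7 fell of 15) were mixed in ERM, with LRPPRC at -1.90 ± 0.10. All 13 mRNAs of mitochondrial DNA fell in ERM.

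**Figure D3:**
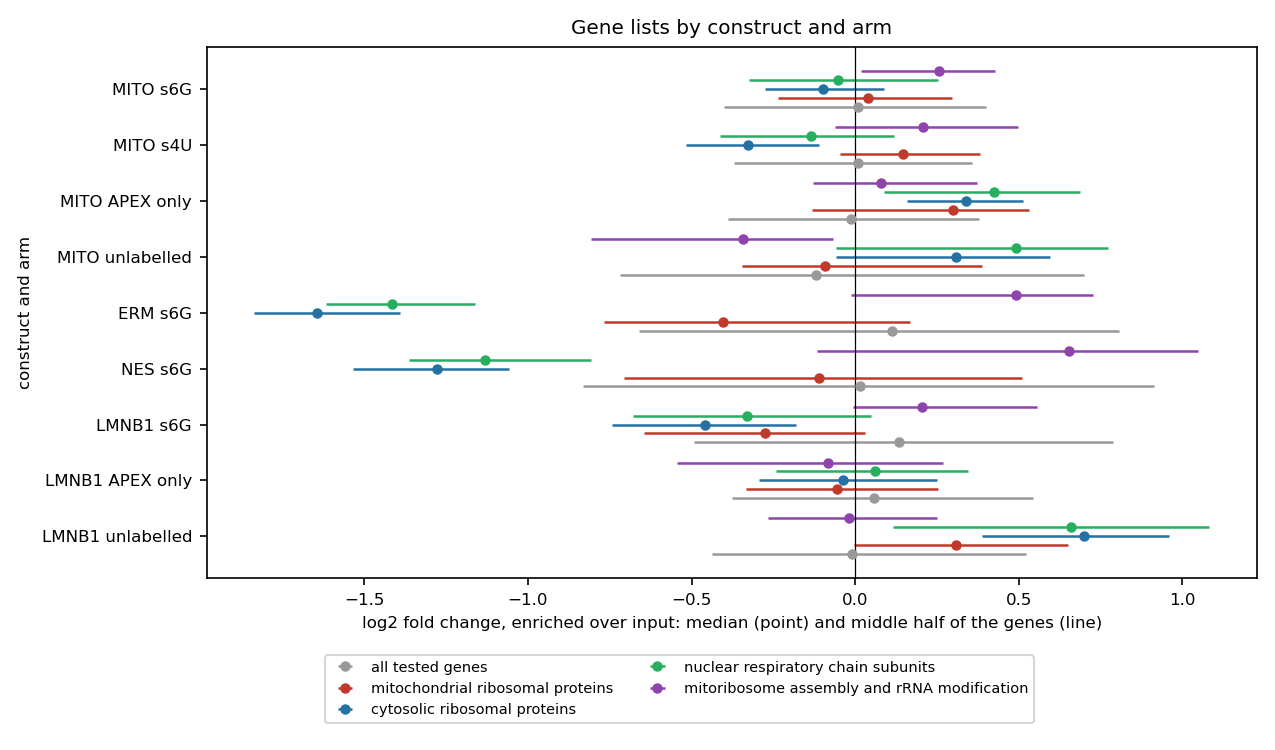
Median log2 fold change of enriched over input RNA (x axis; lines span the interquartile range) for 5 gene lists in each construct and arm (y axis). In ERM and NES the mitochondrial ribosomal proteins, at -0.40 and -0.11, lie between all tested genes and the cytosolic ribosomal proteins, at -1.64 and -1.28.

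Gene length was compared between members that rose and fell. In ERM the risers spanned 2199 to 42063 bases (median 9802) and the fallers 1377 to 100838 bases (median 12477). The 23 members not called had a median span of 6241 bases, shorter than both. Across the 75 members Spearman's rho of log2 fold change with span was -0.174, against 0.075 over the 14370 tested genes with a span, and rho with mean level was 0.152. In the LMNB1 s6G libraries rho with span was -0.374 against -0.077 over all genes. There the 8 members that fell had a median span of 33041.5 bases, and the 67 not called 8592. These are descriptions over genes, which also share library and depth.

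The promoters of the members were read for short motifs to see whether members that rose and fell share sequence there. RefSeq promoter sequences (GRCh38.p14) matched 70 of the 78 members, and the 250 bases before the start were searched on both strands. The letters CCGGAAG, part of the site bound by ETS-family factors such as GABP, were present in 23 of 70 (32.9%), against 11.8% of 15843 protein-coding genes and 8.78% of 27305 genes of all kinds. The core of the nuclear respiratory factor NRF1 site, GCATGCGC, was present in 8.57% against 3.72% of protein-coding genes, and AAGATGGCG, for YY1, in 4.29% against 0.757%. The CCAAT box of NFY (27.1% against 34.5%) and GGGCGG, for SP factors (54.3% against 55.8%), stood near or below the other genes. A match describes the letters and shows no binding. The ETS letters occurred at near-equal shares among risers and fallers: 5 of 15 promoters of members that rose in ERM (33.3%) and 10 of 32 of those that fell (31.2%). Other motifs were more frequent in risers: GGGCGG stood in 12 of 15 and 16 of 32 (80.0% and 50%), CCAAT in 6 of each (40% and 18.8%), GCATGCGC in 2 of each (13.3% and 6.25%) and AAGATGGCG in 1 of each (6.67% and 3.12%). The riser windows also had more G and C, at a median of 63.6% against 57.6%, and these shares were not tested. The 3 with the largest change in each direction are shown, among promoters with the letters that overlap no annotated gene. They run 5′ to 3′ along the strand of the gene and end at the base before its start, with the ETS letters or their reverse complement in capitals.
MRPL33 (GRCh38.p14, chr2:27771469-27771718, plus strand, ERM log2 fold change -1.41): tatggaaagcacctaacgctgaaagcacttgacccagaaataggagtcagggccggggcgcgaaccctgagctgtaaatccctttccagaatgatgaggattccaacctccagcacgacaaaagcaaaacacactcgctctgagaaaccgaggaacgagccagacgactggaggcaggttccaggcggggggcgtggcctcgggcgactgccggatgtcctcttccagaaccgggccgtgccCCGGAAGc
MRPL48 (GRCh38.p14, chr11:73787624-73787873, plus strand, ERM log2 fold change -1.05): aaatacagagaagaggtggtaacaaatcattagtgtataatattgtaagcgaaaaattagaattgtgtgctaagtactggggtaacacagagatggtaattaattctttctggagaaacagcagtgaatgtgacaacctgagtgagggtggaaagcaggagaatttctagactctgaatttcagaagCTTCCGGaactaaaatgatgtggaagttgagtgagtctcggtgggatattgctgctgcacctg
MRPL20 (GRCh38.p14, chr1:1407294-1407543, minus strand, ERM log2 fold change -1.03): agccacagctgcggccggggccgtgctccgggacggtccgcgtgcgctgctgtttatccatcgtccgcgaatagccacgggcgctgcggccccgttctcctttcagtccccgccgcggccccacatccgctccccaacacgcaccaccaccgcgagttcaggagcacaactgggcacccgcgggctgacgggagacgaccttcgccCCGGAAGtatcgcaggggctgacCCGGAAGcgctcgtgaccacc
MRPS10 (GRCh38.p14, chr6:42217862-42218111, minus strand, ERM log2 fold change 0.54): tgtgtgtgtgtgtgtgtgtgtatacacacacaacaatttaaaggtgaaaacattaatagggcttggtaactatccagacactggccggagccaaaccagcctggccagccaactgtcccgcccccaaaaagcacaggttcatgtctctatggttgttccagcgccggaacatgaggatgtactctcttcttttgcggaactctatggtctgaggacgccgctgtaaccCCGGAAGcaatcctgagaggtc
MRPS26 (GRCh38.p14, chr20:3045802-3046051, plus strand, ERM log2 fold change 0.66): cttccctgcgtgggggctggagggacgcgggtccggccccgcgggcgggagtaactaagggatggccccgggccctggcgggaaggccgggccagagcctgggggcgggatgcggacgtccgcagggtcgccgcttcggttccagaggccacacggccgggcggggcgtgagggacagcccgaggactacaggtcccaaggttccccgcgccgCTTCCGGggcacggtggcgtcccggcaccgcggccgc
MRPS31 (GRCh38.p14, chr13:40771191-40771440, minus strand, ERM log2 fold change 0.76): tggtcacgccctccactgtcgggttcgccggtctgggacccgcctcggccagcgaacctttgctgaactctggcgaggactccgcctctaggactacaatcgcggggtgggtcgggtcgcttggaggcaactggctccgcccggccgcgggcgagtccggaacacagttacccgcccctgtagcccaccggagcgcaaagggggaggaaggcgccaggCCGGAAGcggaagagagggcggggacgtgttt

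In these 6 windows the ETS letters begin between 8 bases (MRPL33) and 63 bases (MRPL48) before the start. MRPL20, which fell, holds them at 2 places.

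At the nuclear lamina 9 members were called. After s6G labelling from the LMNB1 construct, 1 of 76 members rose and 8 fell (1.32% and 10.5%), against 5.37% and 7.64% of all 16525 genes tested. The members' median log2 fold change was -0.28 against 0.13 for all genes, and 20 of 76 (26.3%) lay above 0 against 55.6% of all genes. Both enriched libraries lay below both inputs for 39 members (51.3%, against 31.4% of all genes) and above for 6 (7.89%, against 31.9%). With the replicate block 2 members rose and 12 fell, against 8.35% and 10.6% of all genes.

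MRPL37, a large-subunit protein found only in mitochondria, fell most among those called. It went from 366 and 331 CPM in the inputs to 167 and 102 CPM, a log2 fold change of -1.24 ± 0.21 (SE, n = 2 and 2, edgeR adjusted p = 0.00277). In the APEX-only arm it went from 376.5 and 320 CPM to 179 and 208 CPM, and in the unlabelled arm from 309 and 281 CPM to 277 and 287 CPM, so the enriched libraries were lower in both labelled arms. MRPS35 (-1.16 ± 0.31), MRPL3 (-1.03 ± 0.28), the pentatricopeptide-repeat protein MRPS27 (-0.99 ± 0.27) and MRPL42 (-0.98 ± 0.29) were the next lowest called. MRPL30, MRPL19 and MRPL4 fell by 0.94, 0.88 and 0.81 on the log2 scale.

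MRPL46 was the 1 member called higher, from 12.2 and 11.6 CPM to 42.8 and 19.7 CPM (log2 fold change 1.51 ± 0.45, edgeR adjusted p = 0.0439). The 2 enriched libraries differ widely, and in the unlabelled arm it also stood higher after enrichment, at 25.6 and 24.3 CPM against 14.1 and 7.92 CPM. Several of these calls rest on single libraries: the count fell without LMNB1 s6G enriched replicate 2, input replicate 1 or input replicate 2. Such a fit leaves 1 library in a group for every gene, so the drop need not be particular to the members. Among the other mitochondrial ribosomal proteins PTCD3 rose at the lamina, by 1.15 ± 0.20, while it fell in ERM.

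In the APEX-only LMNB1 arm edgeR called none of 76 members, against 0.411% of genes higher and 1.02% lower. There were 10 members (13.2%) with an unadjusted p under 0.05, against 15.8% of all genes, and DESeq2 called 5, all lower, against 4.09%. MRPL28, MRPL37 and MRPS34 were lower with the block, at -0.78, -0.80 and -0.80 (edgeR adjusted p = 0.0413, 0.0439 and 0.0426), against 2.89% of all genes. The difference between the s6G and APEX-only enrichments was called for no member and no gene by edgeR. At an unadjusted p under 0.05 there were 7 members, all lower with s6G, against 5.95% of all genes, and DESeq2 called 2, both lower, against 2.21%.

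In the matrix, where the protein products work, edgeR with TMM scaling and no replicate block called no mRNA of a member in the labelled arms. Transcripts of mitochondrial DNA rose. All 13 mitochondrial mRNAs rose in the MITO s6G arm, with a median log2 fold change of 3.86 and MT-CO1, a cytochrome oxidase subunit, at 4.28 ± 0.54. None of 74 members was called there by edgeR, against 0.29% of genes higher and 0.0264% lower. Their median was 0.04 against 0.01 for all genes, 5 had an unadjusted p under 0.05 (all genes 8.86%), and DESeq2 called 2, both higher (all genes 1.6%). With unscaled totals 22 members were called, all lower, against 18.3% of all genes. The highest values of well-counted members were MRPL51 (0.90 ± 0.33), MRPS26 (0.81 ± 0.32) and MRPS21 (0.71 ± 0.29), and the lowest MRPS6 (-0.74 ± 0.42), MRPL47 (-0.71 ± 0.40) and MRPL2 (-0.68 ± 0.29). MRPL51, MRPS21 and MRPS26 were called higher with the replicate block, against 3.47% of all genes. MRPL51 stood at 162 and 167 CPM in the inputs and at 242 and 357 CPM after enrichment, without overlap.

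The s4U arm gave no called member by edgeR either, against 0.112% of genes higher and 0% lower, with 5 members at an unadjusted p under 0.05 (all genes 6.93%) and none by DESeq2 (1.45%). The median was 0.15 against 0.01, and the replicate block called MRPL35 and MRPL50 higher, against 1.76% of all genes. In the APEX-only arm the members as a whole stood higher. Their median was 0.30 against -0.01, 51 of 74 (68.9%) lay above 0 against 48.4% of all genes, and 25 had both enriched libraries above both inputs (33.8%, against 17.8%). None was called by edgeR, against 0.251% of genes higher and 0.0198% lower, while 9 had an unadjusted p under 0.05, all higher (all genes 4.98%), and DESeq2 called 2, both higher (1.71%). With unscaled totals 4 were called, all lower, against 7.27% of all genes. The replicate block called 10 higher and 1 lower, against 4.33% and 2.82% of all genes, with MRPS9 at 0.99, MRPL51 at 0.96 and MRPS21 at 0.94 highest and MRPS27 at -0.73 the lower one. Cytosolic ribosomal proteins and nuclear respiratory chain genes had similar medians in that arm, at 0.34 and 0.42. All MITO medians depend on scaling: with unscaled totals, which count the mitochondrial reads, the members' medians were -0.83, -0.30 and -0.42 in the s6G, s4U and APEX-only arms, and those of all genes -0.86, -0.44 and -0.74.

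The differences between thionucleoside and APEX-only enrichment in the matrix called no member and no gene by edgeR. For s6G 2 members had an unadjusted p under 0.05 (all genes 2.45%), for s4U 1 had (2.74%), and DESeq2 called none for either (0.0132% of genes each).

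**Figure D4:**
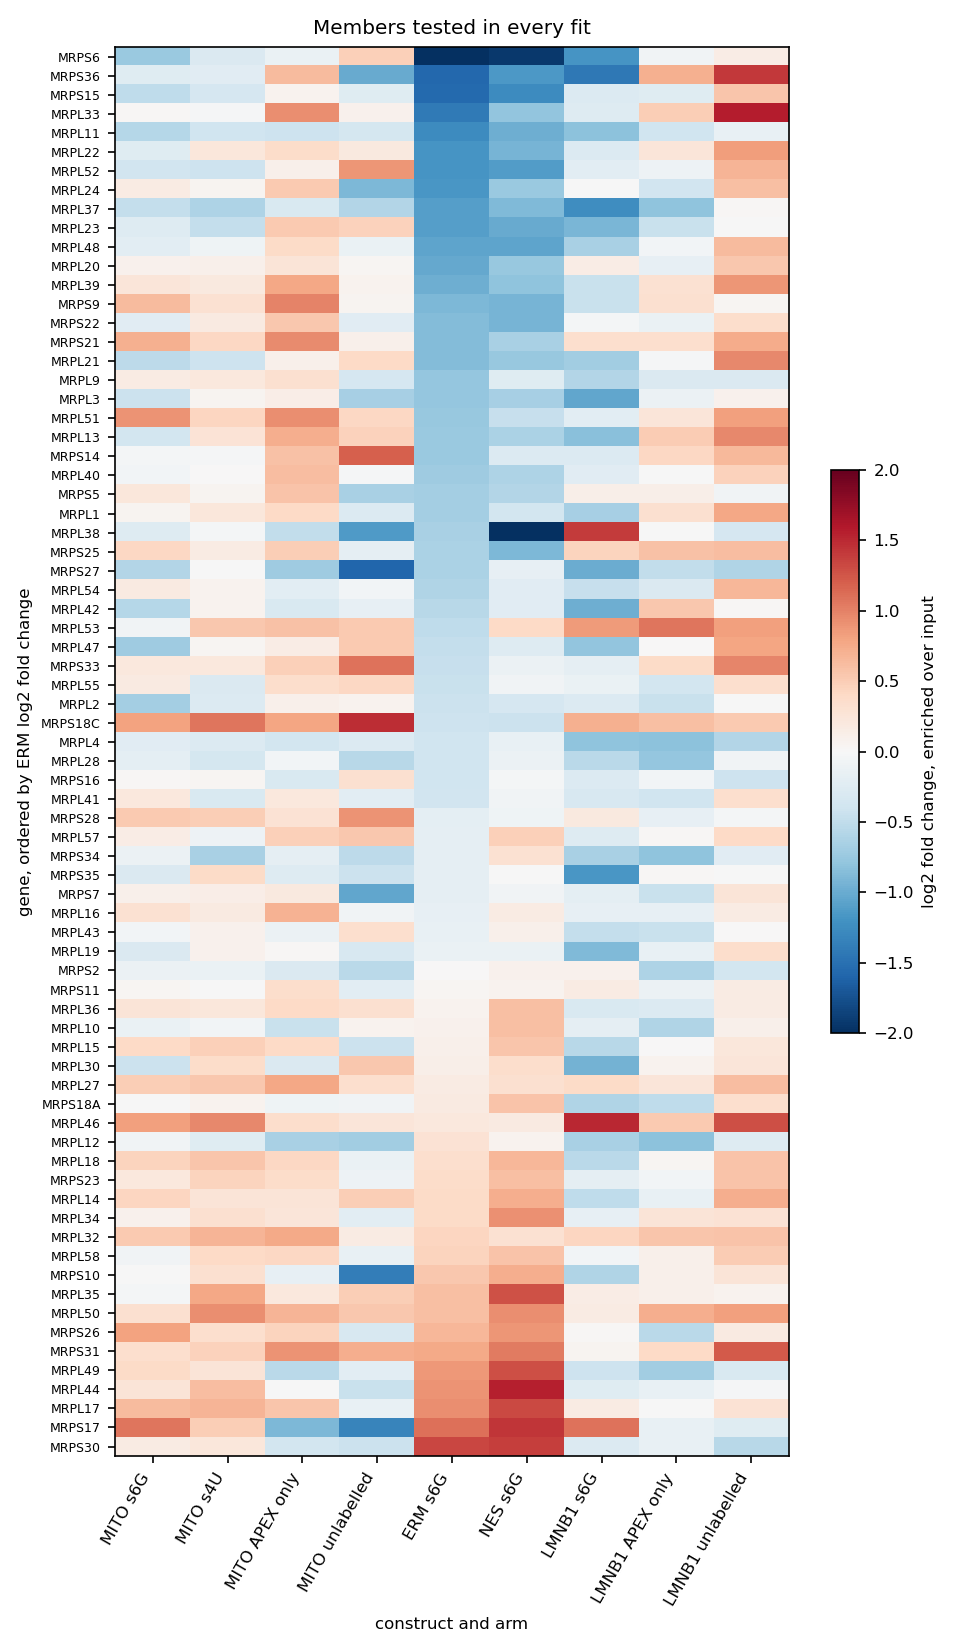
Log2 fold change of enriched over input RNA (colour, red higher and blue lower, limited to the printed scale) for the 74 members tested in every set of libraries (y axis, ordered by the ERM value) in each construct and arm (x axis). ERM and NES run from blue to red in nearly the same order, with MRPS6 at -2.04 and -1.93 and MRPS30 at 1.33 and 1.39, while the MITO and LMNB1 columns do not follow that order closely.

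The unlabelled arms show what the beads held without biotin-phenol. In MITO, MRPS14 rose, from 48.3 and 57.1 CPM to 140 and 97.0 CPM (1.19 ± 0.31, edgeR adjusted p = 0.0273), and MRPS27 fell, from 158 and 120.5 CPM to 23.3 and 51.4 CPM (-1.58 ± 0.43, edgeR adjusted p = 0.0289). These are 1.35% of 74 members each way, against 5.78% of genes higher and 4.09% lower. Both calls rest on shallow enriched libraries and were lost without either unlabelled input library, while 1 lower call was left without enriched replicate 1. The block gave 4 rises and 3 falls, against 9.89% and 10.6% of all genes. In LMNB1 edgeR called none of 76, against 0.0242% of genes higher and 0.0121% lower, with 21 members higher and 2 lower at an unadjusted p under 0.05 (all genes 8.01% and 9.34%), and 3 called higher by DESeq2 (1.33%). There the members' median was 0.31 against -0.01, and 29 had both enriched libraries above both inputs (38.2%, against 13.3% of all genes). Without LMNB1 unlabelled enriched replicate 1, 8 members were called higher, against 2.04% of all genes. MRPL33 (1.57 ± 0.44), MRPS36 (1.41 ± 0.51) and MRPL46 (1.28 ± 0.46) had the highest values. The part of such label-independent recovery in the labelled arms was not tested.

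Comparing constructs, the NES libraries served as the common cytosolic reference. The MITO enrichment minus the NES enrichment was higher for 3 of 76 members and lower for 1 (3.95% and 1.32%), against 3.33% and 4.03% of 19314 genes. MRPS9 (1.54 ± 0.40), MRPS21 (1.32 ± 0.36) and MRPS25 (1.28 ± 0.33) were higher, and MRPL44 was lower (-1.32 ± 0.42). MRPS25 stood at 66.6 and 72.6 CPM in the MITO inputs and 88.1 and 92.9 CPM after enrichment, against 74.4 and 75.6 CPM, then 39.4 and 40.6 CPM, in NES. The count was 0 without MITO enriched replicate 2, MITO input replicate 1, either NES enriched library or NES input replicate 1. It was 1 without NES input replicate 2, 2 without MITO input replicate 2 and 7 without MITO enriched replicate 1. The block gave 8 higher and 5 lower, against 8.1% and 9.85% of all genes.

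The LMNB1 enrichment minus the NES enrichment was higher for 3 members and lower for 12 (3.95% and 15.8%), against 7.04% and 11.3% of all genes. Members with the largest rises in NES, whose values enter this difference, led the lower ones: MRPL44 (-1.93 ± 0.41), MRPL49 (-1.83 ± 0.36) and MRPS30 (-1.80 ± 0.40), then MRPS10 (-1.46 ± 0.40) and MRPL30 (-1.42 ± 0.36). MRPS30 stood at 59.8 and 48.3 CPM in the LMNB1 inputs and 41.5 and 39.2 CPM after enrichment. MRPS24 (4.40 ± 1.5), MRPL38 (3.27 ± 0.79) and MRPS25 (1.22 ± 0.32) were higher. MRPS24 never exceeded 2.65 CPM in these libraries, so its value rests on few counts. With the replicate block 7 were higher and 27 lower, against 11.5% and 16.9% of all genes. The count of 15 fell to 7 or 8 without any 1 NES library, to 7 without LMNB1 s6G enriched replicate 2 and to 5 without LMNB1 s6G input replicate 1. This and the MITO comparison share the NES libraries.

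The inputs gave no called member in any of 6 comparisons of thionucleoside or unlabelled inputs with other inputs by edgeR, and none by DESeq2. Of all genes edgeR called 0.0528% for MITO s6G over APEX-only input, 0.127% for LMNB1 s6G over APEX-only input and 0% in each of the others. At an unadjusted p under 0.05 there was 1 member for MITO s6G over APEX-only input, 1 for LMNB1 s6G over APEX-only input and none in the others. The shares of all genes at that p and by DESeq2 were 8.49% and 0.667% for MITO s6G over APEX-only input, and 11.5% and 1.75% for LMNB1 s6G over APEX-only input. They were 3.85% and 0.0462% for MITO s4U over APEX-only input, 4.67% and 0.066% for MITO s6G over s4U input, 0.191% and 0% for MITO unlabelled and 0.641% and 0.0182% for LMNB1 unlabelled over APEX-only input. The largest input values among well-counted members were MRPL12 at 0.95 ± 0.45 (LMNB1 s6G) and MRPL33 at 0.73 ± 0.31 (MITO s6G). Against the same APEX-only inputs, the unlabelled inputs, given no thionucleoside, stood at 0.64 ± 0.45 for MRPL12 (LMNB1) and 0.19 ± 0.31 for MRPL33 (MITO). The MRPL12 value is therefore not particular to the s6G inputs.

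The authors' deposited table of ERM over NES gives a p under 0.05 for 1 of 77 members, MRPS25 at a log2 fold change of 0.41, against 4.52% of all genes higher and 3.9% lower. It has 34 members above 0 and 43 below (44.2% above, against 57.5% of all genes). Its header does not say whether inputs enter the ratio, so it may differ in measure from the input-corrected difference given above. It also covers 31628 genes, nearly empty ones such as MRPS12 included, against 15619 tested here after the low-count filter. The authors' deposited table for LMNB1 s6G gives 2 members higher and 14 lower of 74 with an adjusted p (2.7% and 18.9%, against 7.29% and 14.7% of all genes), MRPL37 at -1.39 among them. The authors' deposited table for APEX-only LMNB1 gives 1 higher and 6 lower of 70 (1.43% and 8.57%, against 4.62% and 12.3%).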

How the data were processed

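RNA of HEK293T cells was measured by sequencing in 40 libraries. The authors deposited whole-number counts per gene; reads were aligned to hg38 with HISAT2 2.1.0 and counted with HTSeq 0.7.2, per the submitters' processing notes, which also name SAMtools, deepTools 2.5.3 and DESeq2. The deposited MITO table also gives log2(TPM + 1), where the TPM of the 2 libraries of a group were added, as the column totals show, and the authors' comparison tables give log2 fold changes, p-values and a mean signal over samples, per the file headers. Whether counting used strand is not given in the sources used here.

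Genes passed edgeR's default low-count filter (minimum count 10). Counts were tested with edgeR 4.0.16 (R 4.3.3, limma 3.58.1), TMM scaling and robust quasi-likelihood tests, with Benjamini-Hochberg adjustment over all genes tested and a threshold of 0.05. One fit each covered the MITO (15151 genes), ERM with NES (15619), LMNB1 (16525) and all libraries (19314, for differences between constructs). The edgeR procedure was run on simulated counts with known changes, for a single comparison in each of the MITO, ERM with NES and LMNB1 fits. The simulated spread between libraries was fixed and not taken from these data, so the run does not show how well the procedure performs on them. The fit of all libraries was not simulated. Alternatives were DESeq2 1.42.0, other scalings, other filters (none, or minimum count 50), removal of mitochondrial DNA genes, only the compared libraries, left-out libraries and a replicate block. The design text describes libraries made before and after enrichment of each replicate, so enriched and input libraries of the same number were taken as pairs. Their deviations from group means correlated at 0.041 to 0.635. Inputs of different arms, which are not pairs, correlated at -0.596 to 0.548, so these values do not establish the pairing. Input and enriched libraries were amplified for 11 and 15 PCR cycles, and PCR reads without molecular identifiers are not independent molecules. Total counts of 123341 to 14496768 set the precision.

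Named members were a panel by role, up to 5 called members at each end of a comparison, the 3 highest and lowest well-counted members, and the extremes by TPM; other lists gave up to 3 called genes. The members and lists were chosen with earlier results of these data known.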

Additional observations from a re-analysis of the deposited data

Results flagged for a closer look

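For 4 of 76 members the enrichment in the matrix differed from that in the cytosol by edgeR's test of the difference. MRPS9 at 1.54, MRPS21 at 1.32 and MRPS25 at 1.28 were higher with MITO, and MRPL44 at -1.32 was lower. Of all genes 3.33% were called higher and 4.03% lower, so this count is no more than the background gives. Between the nuclear lamina and the cytosol the same test called 15 of 76 members, 3 higher and 12 lower, against 7.04% and 11.3% of all genes. Both counts changed when single libraries were left out. The 5 lowest and all 3 higher ones of the lamina comparison are given. MRPL44 (-1.93), MRPL49 (-1.83), MRPS30 (-1.80), MRPS10 (-1.46) and MRPL30 (-1.42) were lower with LMNB1. MRPS25 (1.22), MRPL38 (3.27) and MRPS24 (4.40) were higher. MRPL44 and MRPS25 stand in both comparisons, which share the NES libraries. MRPS24 stood at 0.37 CPM in both NES enriched libraries. In 22 groups of 4 ERM libraries, no single library lay apart from the rest by Dixon's test, which chance alone passes in about 1 group in 20. These groups covered only the named called ERM members, which a small spread helps to be called, and the members' share of counts. The test cannot flag 2 libraries that lie apart from 2 others.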

How the results depend on the processing

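The 40 named called results kept their direction under every alternative run, and 22 were called under every one. Of 288 alternative counts of called members 234 equalled the main count or stayed within 1.5 times of it. Main counts of 0 that stayed 0, as for the inputs, are among the 234 and say little about stability. With unscaled totals the counts were 22, all lower (MITO s6G, against 18.3% of all genes lower), 4, all lower (MITO APEX only, 7.27%), 5, with 2 higher and 3 lower (LMNB1 s6G, 9.35% and 5.32%), and 28, all lower (MITO minus NES, 22.1%). With DESeq2 they were 2 (MITO s6G), 2 (MITO APEX only), 5, with 4 higher (MITO unlabelled, 8.98% of all genes higher and 3.04% lower), 5 (LMNB1 APEX only), 3 (LMNB1 unlabelled), 2 (LMNB1 s6G minus APEX only), 2 (ERM minus NES) and 11, with 6 higher (MITO minus NES, 5.92% and 7.3%); the other DESeq2 calls were lower in LMNB1 APEX only and the differences, and higher otherwise. With the replicate block, which pairs each enriched library with its input, they were 3 for MITO with s6G, 2 for MITO with s4U, 11 for MITO with APEX only, 7 (MITO unlabelled), 14 (LMNB1 s6G), 3 (LMNB1 APEX only), 3 (ERM minus NES), 13 (MITO minus NES) and 34 (LMNB1 minus NES); the block moved no other count by over 1.5 times. Without a filter they were 5, with 2 higher (MITO unlabelled, 5.89% and 3.25%), 1 higher (LMNB1 unlabelled, 0.473%) and 1 lower (LMNB1 s6G minus APEX only, 0.384%), and with the stricter filter 8, with 6 higher (MITO minus NES, 7.79% and 6.99%). With only the compared libraries they were 0 (MITO unlabelled, 2.47% and 0.0312%), 5 lower (LMNB1 APEX only, 6.06%), 2 lower (LMNB1 s6G minus APEX only, 2.2%), 9, with 6 higher (MITO minus NES, 8.76% and 9.05%), and 26, with 5 higher (LMNB1 minus NES, 16.5% and 19.6%). ERM replicates 1 and 2 alone, a split chosen after seeing the data, gave 7 for ERM minus NES, and replicates 3 and 4 alone gave 8. Leaving out 1 library gave 0 to 3 (MITO unlabelled), 1 to 9 (LMNB1 s6G), 0 to 8 (LMNB1 unlabelled), 0 to 7 (MITO minus NES) and 5 to 14 (LMNB1 minus NES). The cause of these changes was not tested. Where leaving out a library leaves 1 in a group, that library is assumed to vary like the others. This holds for every gene, so a changed count need not be particular to the members. The unlabelled MITO enriched libraries are the shallowest and limit that arm most.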
